A study of Mus musculus with 2 samples.

Results

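The 36 genes described here encode the proteins that carry a cell through G2 and mitosis. They were chosen by name from textbook roles, with earlier results of these data known. They are the rows of the deposited gene table that carry those symbols, and all 36 were found among 43346 features. Total RNA was compared between a culture of X63/0 (X63-Ag8.653) cells given 30 mM cycloleucine for 3 h and an untreated culture of the same line. X63/0 is a mouse plasmacytoma line, a tumour line of plasma cell origin that divides in culture, and it carries no transgene or deletion that the labels name. Cycloleucine is an amino acid analogue that blocks the enzyme making S-adenosylmethionine, the methyl donor of the cell. The question the study put was how transcripts differ when that donor is lowered. Ribosomal RNA was depleted before sequencing, and 1 library per group was analysed here, so differences were measured once and no test was made. The series' design text speaks of 3 repeats of the experiment; whether either library pools several cultures is not stated.

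Entry into mitosis is driven by CDK1 bound to cyclin B, switched on by CDC25 phosphatases and held back by the kinase WEE1. Polo and Aurora kinases then build the spindle, kinetochores attach chromosomes to it, and the checkpoint around MAD2 and BUBR1 holds the anaphase-promoting complex until all are attached. That complex, with CDC20, then marks securin and cyclin B for destruction. Transcripts of most of these genes rise together late in the cell cycle, under the B-MYB and FOXM1 factors that bind with the MuvB complex at an element called CHR (cell cycle genes homology region), near CCAAT boxes bound by NF-Y. Most cells in an unsynchronised culture are not in mitosis, so a level in total RNA depends both on the share of cells in G2 and M and on the RNA per such cell. These cannot be told apart in bulk samples.

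Words of the CHR and CCAAT kinds were looked for in the promoters, and no binding was measured. Printed here are 5 windows picked for holding both, 1 from each role group, to show how the words lie around the start. RefSeq windows of 300 bases (250 before the annotated start and 50 after it, GRCm38.p6, which is the mm10 build) were matched by symbol to 31 members; Ccna2, Aurkb, Kif20a, Cdc25c and Tpx2 were not matched. From each role group the member with both words and the largest log2 fold change in either direction is shown, with CHR (TTTGAA or TTCGAA) and CCAAT in capitals on either strand, so that TTCAAA and ATTGG are the same words read from the other strand.
Ccnb2, GRCm38.p6, chr9:70421505-70421804, minus strand: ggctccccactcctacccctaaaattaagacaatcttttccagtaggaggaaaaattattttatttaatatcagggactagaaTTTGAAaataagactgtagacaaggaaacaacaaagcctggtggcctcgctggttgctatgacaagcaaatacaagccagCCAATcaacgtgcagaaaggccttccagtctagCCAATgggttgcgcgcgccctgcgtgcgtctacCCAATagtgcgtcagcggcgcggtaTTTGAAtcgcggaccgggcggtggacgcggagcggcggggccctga
Ttk, GRCm38.p6, chr9:83834439-83834738, plus strand: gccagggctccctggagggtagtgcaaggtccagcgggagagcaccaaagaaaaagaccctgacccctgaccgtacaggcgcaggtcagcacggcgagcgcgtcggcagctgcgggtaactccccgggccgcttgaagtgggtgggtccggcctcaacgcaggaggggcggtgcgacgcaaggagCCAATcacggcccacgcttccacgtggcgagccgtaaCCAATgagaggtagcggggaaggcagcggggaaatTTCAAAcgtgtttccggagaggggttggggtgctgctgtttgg
Kif11, GRCm38.p6, chr19:37376132-37376431, plus strand: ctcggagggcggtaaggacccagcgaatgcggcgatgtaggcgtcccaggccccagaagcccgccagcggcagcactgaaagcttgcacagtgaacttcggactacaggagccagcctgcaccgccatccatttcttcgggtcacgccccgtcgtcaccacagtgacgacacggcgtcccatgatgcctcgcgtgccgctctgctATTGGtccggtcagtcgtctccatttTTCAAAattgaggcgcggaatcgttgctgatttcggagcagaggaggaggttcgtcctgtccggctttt
Espl1, GRCm38.p6, chr15:102296043-102296342, plus strand: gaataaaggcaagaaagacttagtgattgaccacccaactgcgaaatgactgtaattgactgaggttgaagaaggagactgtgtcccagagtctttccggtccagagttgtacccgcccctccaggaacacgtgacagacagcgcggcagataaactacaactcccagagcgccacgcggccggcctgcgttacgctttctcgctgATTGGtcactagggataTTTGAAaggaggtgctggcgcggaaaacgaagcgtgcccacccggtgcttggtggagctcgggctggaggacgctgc
Top2a, GRCm38.p6, chr11:99024140-99024439, minus strand: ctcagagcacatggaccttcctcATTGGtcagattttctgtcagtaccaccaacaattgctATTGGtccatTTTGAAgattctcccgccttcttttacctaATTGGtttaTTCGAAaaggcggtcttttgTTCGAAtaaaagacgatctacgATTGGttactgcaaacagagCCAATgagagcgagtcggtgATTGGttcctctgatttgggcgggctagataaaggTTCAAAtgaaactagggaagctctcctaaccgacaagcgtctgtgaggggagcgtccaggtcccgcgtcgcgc

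Of the 31 members with a window, 23 held a CHR word (74.2%), against 16.4% of 4335 well-counted genes and 21.7% of all 27025 genes in the promoter table. A CCAAT word was in 24 members (77.4%), against 42.7% of well-counted genes and 41.1% of all genes. Both words were in 21 members (67.7%), against 7.20% of well-counted genes and 8.61% of all genes. The CHR word lay within 50 bases of the start in 21 members, and in 4.71% of well-counted genes, a distance chosen after the positions were seen. In the Ccnb2 window CHR words began 167 bases before and 4 bases after the start, and CCAAT words stood 21, 54 and 87 bases before it. In the Top2a window 4 CHR words and 6 CCAAT words were found. Windows of 30 G1/S and DNA replication genes held a CHR word in 7 (23.3%) and a CCAAT word in 20 (66.7%). Words of the 2 kinds shared no base in any member window, and the TTCGAA word, which reads alike on both strands, was counted once. These elements are known from genes of this kind, so the shares describe the members and do not bear on cycloleucine. The 23 members with a CHR word had a median log2 fold change of 0.0064 between the libraries, and the 8 without one had a median of 0.07, with ranges of -0.18 to 0.34 and -0.16 to 0.31.

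**Figure D1:**
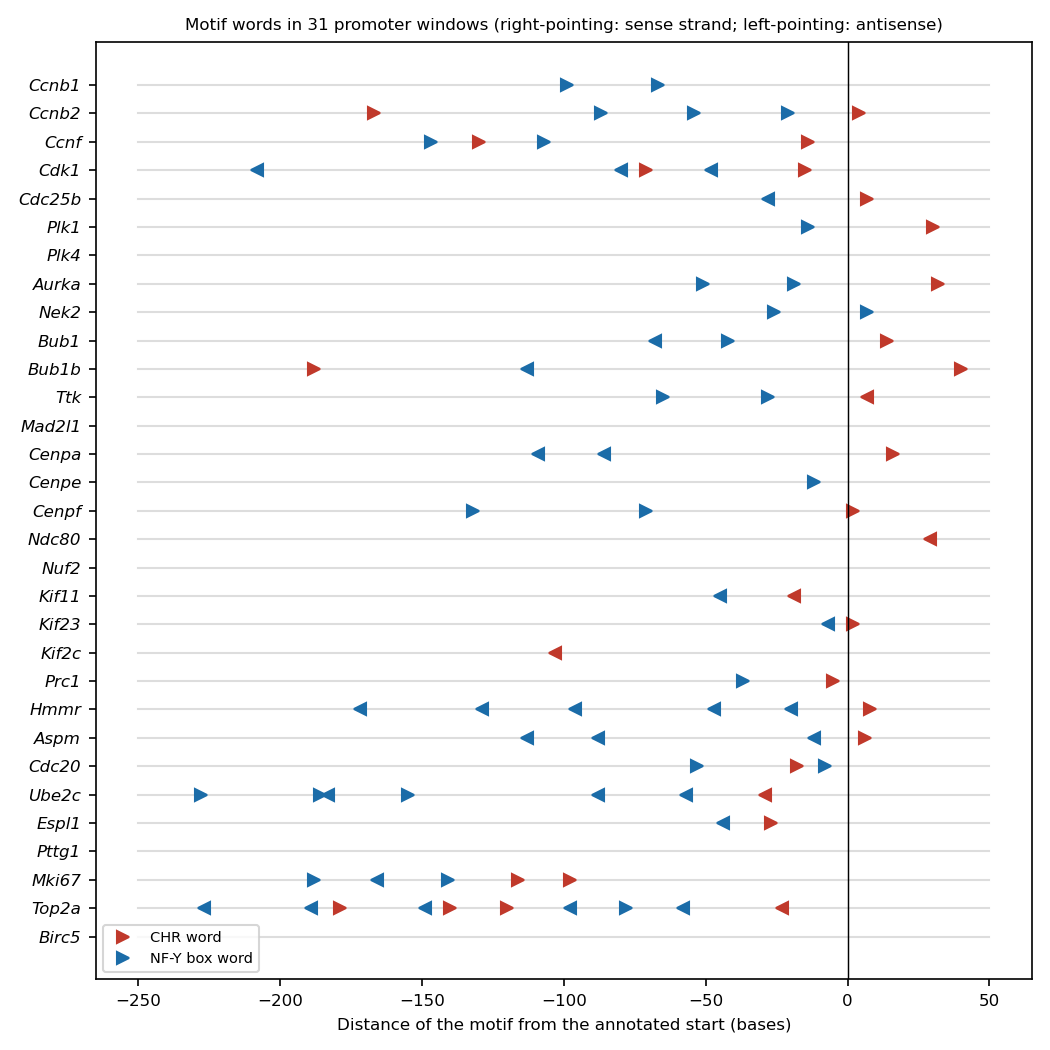
Positions of CHR words (red) and NF-Y box words (blue) in the promoter windows of 31 members, by distance in bases from the annotated start; right-pointing marks lie on the sense strand and left-pointing marks on the antisense strand. For Prc1, which has 2 windows, the first in the table is drawn. CHR words gather around the start, and NF-Y box words mostly before it.

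The library of the cycloleucine culture held 31951946 reads in genes and that of the untreated culture 27127865. The share that fell in exons was 49.4% with cycloleucine and 48.4% without. The gene reads include those of 13700 features without an annotated transcript, so the remainder is not the share of intron reads. All 9 plasma cell markers checked passed the filter on low values, which asks for 50 or more exon reads over both libraries and, in one of them, an RPKM (exon reads scaled to exon length and to the gene reads of the library) of 1 or more. Of 7 T and natural killer cell markers and 6 fibroblast markers none passed, with 25 and 59 exon reads summed in the cycloleucine library and 22 and 43 in the untreated library, and of 7 myeloid markers Cd68 alone passed. Cd3d, Klrb1c, Emr1 and S100a8 had 0 exon reads in both libraries. Of these Emr1 had 42 intron reads with cycloleucine and 52 without, Klrb1c 4 with cycloleucine and 8 without, and Cd3d 2 with cycloleucine and 0 without. Whether cells of other types had a part in any value was not tested.

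All 36 members passed the filter, and each had at least 1000 exon reads over both libraries. They were set beside the 5606 features with an annotated transcript and as many reads, called well-counted genes here. The median RPKM of the members was 20.7 in the cycloleucine library and 18.8 in the untreated library, against 10.6 and 10.5 over the well-counted genes. In both libraries 27 of 36 members lay above that background median. The most abundant was Mki67, which encodes the proliferation antigen Ki-67 that coats mitotic chromosomes, and the next were Cdc20, Top2a and Cenpa in both libraries. The lowest were Nuf2, Plk4, Ttk and Cenpf, none above 6.63 RPKM in either library. Together the 36 genes took 0.323% of gene reads as exon reads in the cycloleucine library and 0.315% in the untreated library, a ratio of 1.03 (95% counting interval 1.02 to 1.04). The same ratio of summed exon reads was 1.02 over the well-counted genes and 1.03 over all features that passed the filter, so the members' sum did not stand apart from theirs.

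**Figure D2:**
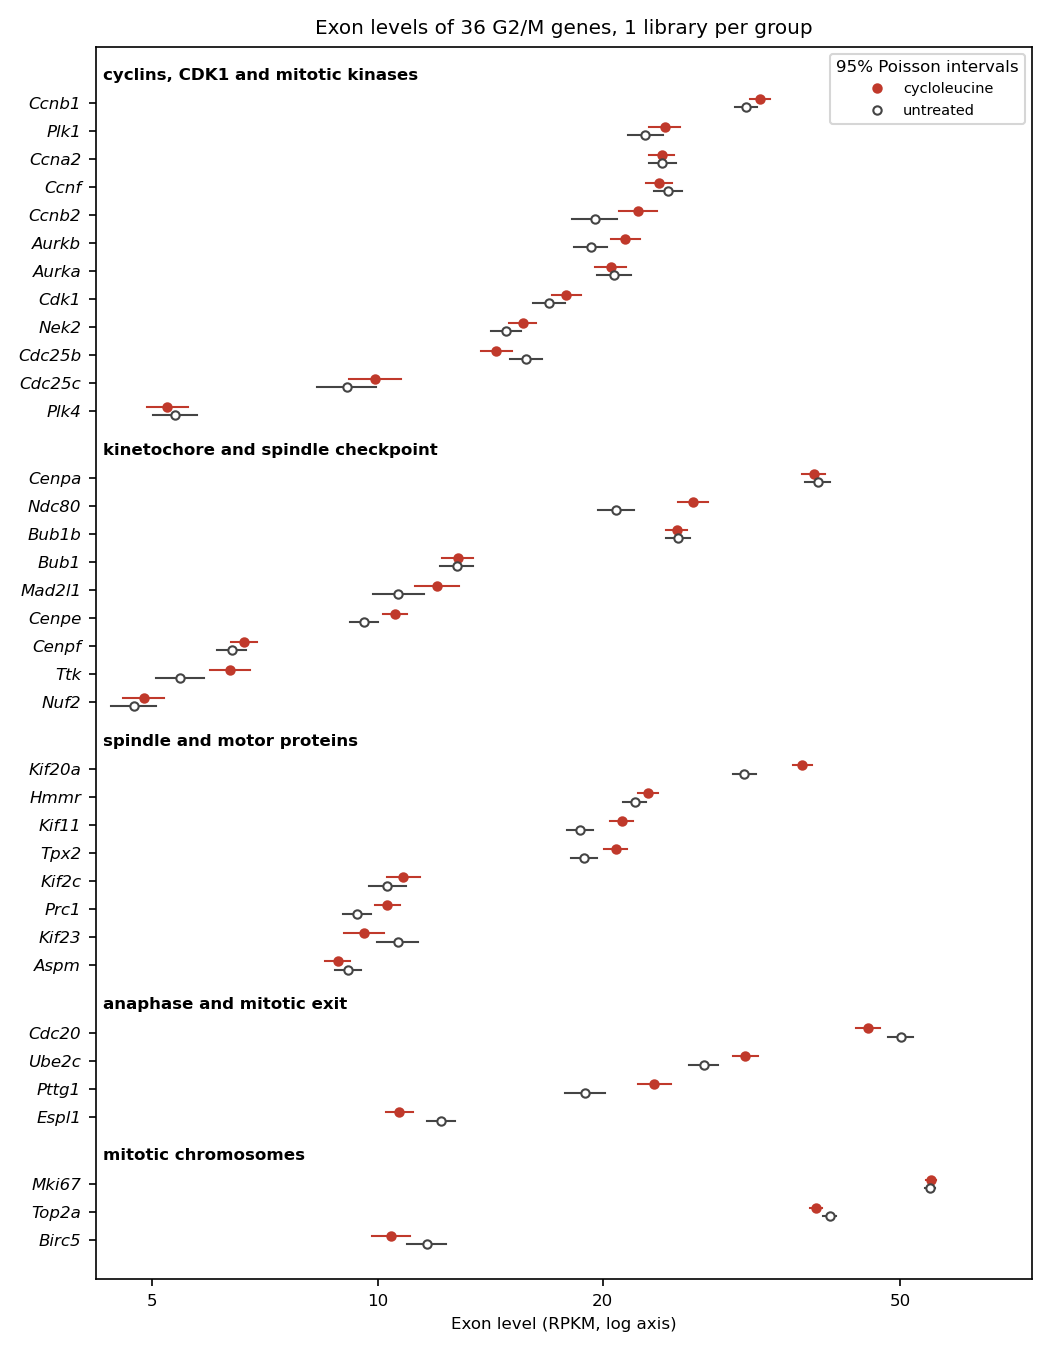
Exon levels (RPKM, log axis) of the 36 genes by role, with the cycloleucine library as filled and the untreated library as open circles and 95% Poisson intervals as lines. The paired circles lie close together at every level, and Ndc80, Pttg1 and Kif20a are among the genes where they stand apart.

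Set between the libraries, the mitotic programme differed little. The log2 fold change, cycloleucine over untreated with 0.1 RPKM added to each value, had a median of 0.06 over the 36 members and ran from -0.18 to 0.34, while the median over the well-counted genes was -0.00011. Above 0 were 23 members and below it 13, where 49.9% of well-counted genes lay above 0. Size was read by fold: a gene had to be 25% or more higher with cycloleucine, or 20% or more lower, which is the same distance on the log2 scale, 0.32. Of the 36 members 1 was higher by that rule and 0 were lower, against 4.08% and 2.82% of well-counted genes. None was 1.5-fold higher or lower, against 0.446% and 0.214% of well-counted genes, and none was 2-fold higher or lower, against 0.0178% and 0.0357%. Every member lay within the middle 95% of well-counted genes, -0.33 to 0.38. Counting intervals (95%, exact, for reads of these libraries alone) lay wholly above 0 in 12 members and wholly below 0 in 6, where 24.5% and 22.9% of well-counted genes did so. Those intervals cover counting error only and say nothing of the spread between cultures. The reads carry no molecular identifiers, so copies made by PCR were counted as separate reads.

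**Figure D3:**
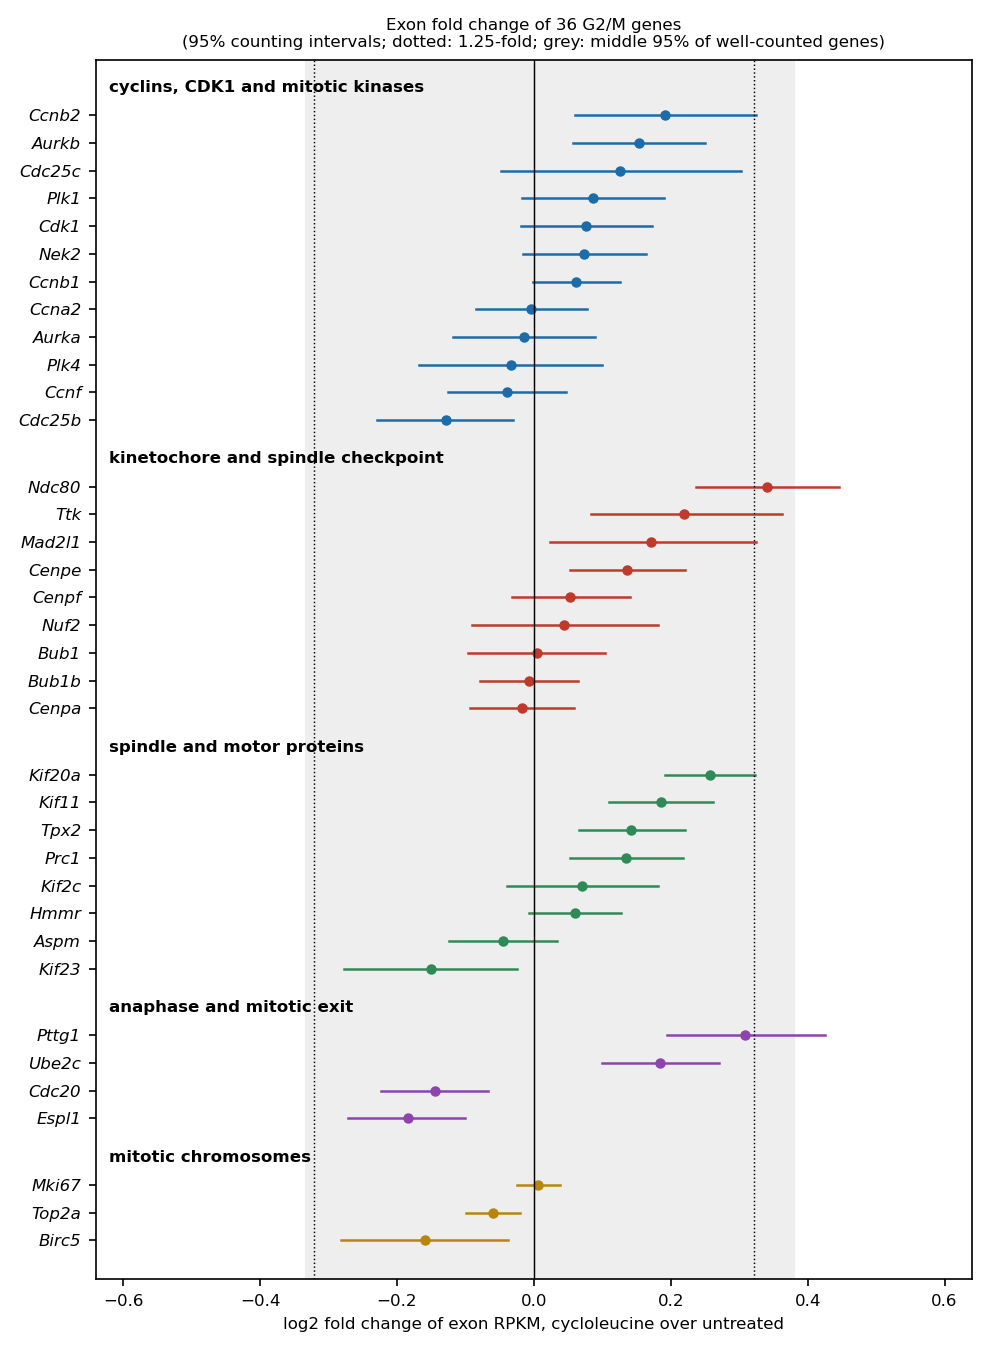
log2 fold change of exon RPKM for the 36 genes by role, with 95% counting intervals; dotted lines mark 25% higher and 20% lower and the grey band the middle 95% of 5606 well-counted genes. Ndc80 alone lies past a dotted line, and the other 35 lie between -0.18 and 0.31.

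The cyclins and their kinase stood nearly level. Ccnb1, which encodes the main mitotic cyclin, had 32.5 RPKM in the cycloleucine library and 31.1 in the untreated library, a log2 fold change of 0.06. Of its exon reads 37.5% were uniquely placed with cycloleucine and 38.5% without, so more than any other member it shares reads with copies elsewhere in the genome. Ccnb2, its Golgi-associated relative, had 22.3 RPKM with cycloleucine and 19.5 without, a log2 fold change of 0.19 (0.06 to 0.32). Ccna2, the S and G2 phase cyclin, had 24.0 RPKM in each library, with a ratio of 0.997 (0.943 to 1.05). Cdk1 itself had 17.9 RPKM with cycloleucine and 17.0 without, a log2 fold change of 0.08 (-0.02 to 0.17). Ccnf, the F-box cyclin that marks proteins for destruction in G2, had 23.8 RPKM with cycloleucine and 24.5 without. The intervals of Cdk1, Ccna2 and Ccnf all held 0, while that of Ccnb2 did not.

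The 2 CDC25 phosphatases on the list, which remove the inhibitory phosphates of CDK1, stood on opposite sides of 0. Cdc25b had 14.4 RPKM in the cycloleucine library and 15.8 in the untreated library, a log2 fold change of -0.13 (-0.23 to -0.03). Cdc25c had 9.93 RPKM with cycloleucine and 9.10 without, a log2 fold change of 0.13 (-0.05 to 0.30). Among the kinases Aurkb, the enzyme of the chromosomal passenger complex, had 21.4 RPKM with cycloleucine and 19.3 without, at 0.15 (0.06 to 0.25). Aurka, which matures the spindle poles, had 20.5 RPKM with cycloleucine and 20.7 without, at -0.01. Plk1, which acts from mitotic entry to cytokinesis, was at 0.09 (-0.02 to 0.19), Nek2, which splits the centrosomes, at 0.07, and Plk4, which starts centriole copying, at -0.03. The 12 cyclin and kinase genes had a median of 0.07, with 7 above and 5 below 0 and none past the size rule.

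Kinetochore and checkpoint genes held the highest value of the list. Ndc80 (mm10 chromosome 17, 71496100 to 71526857, minus strand) encodes the part of the NDC80 complex that grips microtubules. It had 26.4 RPKM in the cycloleucine library and 20.9 in the untreated library, from 1858 exon reads with cycloleucine and 1245 without, a log2 fold change of 0.34 (0.24 to 0.45). Among well-counted genes 3.41% stood higher. Its junction reads did not show this difference, at 0.06 (-0.10 to 0.23), and with the GC trend removed, a setting chosen after the data were seen, its exon value was 0.30, under the size rule. Its partner in the same complex, Nuf2, had 4.87 RPKM with cycloleucine and 4.72 without, a log2 fold change of 0.04 (-0.09 to 0.18). In exon reads that interval ends below the interval of Ndc80. Junction reads had the other order, with Nuf2 at 0.26 (0.04 to 0.48), so the 2 genes are not ranked here. Of the checkpoint genes, Ttk, which encodes the kinase MPS1 at the head of the checkpoint, had 6.36 RPKM with cycloleucine and 5.45 without (0.22, interval 0.08 to 0.36). Mad2l1, which encodes MAD2, the inhibitor of CDC20, had 12.0 RPKM with cycloleucine and 10.7 without (0.17, interval 0.02 to 0.32). Bub1 had 12.8 RPKM in each library, and Bub1b, which encodes BUBR1, had 25.1 with cycloleucine and 25.2 without. Ttk and Mad2l1 thus lay above 0 by more than counting error, and the 2 BUB genes on the line.

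The centromere genes on the list ranged from -0.02 to 0.14 in log2. Cenpa, the histone H3 variant that marks centromeres, had 38.3 RPKM with cycloleucine and 38.8 without. Cenpe, a kinesin that moves chromosomes to the spindle equator, had 10.6 RPKM with cycloleucine and 9.60 without (0.14, interval 0.05 to 0.22), and Cenpf, a large protein of the outer kinetochore, 6.63 RPKM with cycloleucine and 6.39 without (0.05, interval -0.03 to 0.14). The 9 kinetochore and checkpoint genes had a median of 0.05, with 7 above and 2 below 0.

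Spindle and motor genes had the highest median of the role groups, 0.10, with 6 of 8 above 0. Kif20a (mm10 chromosome 18, 34624624 to 34633265, plus strand) encodes MKLP2, the kinesin that carries the passenger complex to the midzone. It had 37.0 RPKM in the cycloleucine library and 30.9 in the untreated library, a log2 fold change of 0.26 (0.19 to 0.32). Kif11, the plus-end motor that pushes the spindle poles apart, had 21.2 RPKM with cycloleucine and 18.6 without (0.19, interval 0.11 to 0.26). Its junction reads did not show this difference, at 0.02 (-0.13 to 0.17). Tpx2, which activates Aurora A on microtubules, had 20.8 RPKM with cycloleucine and 18.9 without (0.14, interval 0.07 to 0.22), and Prc1, which bundles the midzone, 10.3 with cycloleucine and 9.38 without (0.13, interval 0.05 to 0.22). Kif23, the MKLP1 motor of the central spindle, went the other way with 9.59 RPKM with cycloleucine and 10.7 without (-0.15, interval -0.28 to -0.02). Hmmr, Kif2c and Aspm, which act in spindle pole organisation and microtubule depolymerisation, were at 0.06, 0.07 and -0.04. So the motors of the central spindle, Kif20a and Kif23, lay on opposite sides of 0 with intervals that did not meet.

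Genes of anaphase and mitotic exit were split evenly. Pttg1 (mm10 chromosome 11, 43420250 to 43426251, minus strand) encodes securin, the inhibitor of separase. It had 23.5 RPKM in the cycloleucine library and 18.9 in the untreated library, from 1499 exon reads with cycloleucine and 1027 without, a log2 fold change of 0.31 (0.19 to 0.43), just under the size rule. Espl1, which encodes separase, the protease that opens cohesin rings, had 10.7 RPKM with cycloleucine and 12.2 without (-0.18, interval -0.27 to -0.10), the lowest value of the 36. Ube2c, the ubiquitin-conjugating enzyme of the anaphase-promoting complex, had 31.0 RPKM with cycloleucine and 27.3 without (0.18, interval 0.10 to 0.27). Cdc20, its activator, had 45.3 RPKM with cycloleucine and 50.1 without (-0.14, interval -0.22 to -0.07). Securin thus had the second highest value of the list and separase the lowest, and enzyme and activator lay on opposite sides of 0. Summed exon reads of the 4 genes were 9045 with cycloleucine and 7678 without, and once scaled to the libraries their ratio had an interval of 0.970 to 1.03.

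Mki67 and Top2a were the deepest counted members, while Birc5 had 1132 exon reads with cycloleucine and 1074 without. Mki67 had 55.0 RPKM in the cycloleucine library and 54.8 in the untreated library, from 17707 exon reads with cycloleucine and 14967 without, a log2 fold change of 0.0064 (-0.03 to 0.04). Top2a, the topoisomerase that untangles sister chromatids, had 38.6 RPKM with cycloleucine and 40.3 without (-0.06, interval -0.10 to -0.02). Birc5, which encodes survivin of the passenger complex, had 10.4 RPKM with cycloleucine and 11.6 without (-0.16, interval -0.28 to -0.04). Survivin and Aurkb, partners in the passenger complex, therefore lay on opposite sides of 0.

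Reads that span a junction of exons come from spliced RNA and give a further count for each member. All 36 had at least 260 such reads over both libraries. Their median log2 fold change was 0.07, with 25 above and 11 below 0. The background, 7601 features with at least 50 junction reads, was not matched to the members in depth. Its median was -0.0082, with 48.7% above 0. Of the members 3 were 25% or more higher and 0 were 20% or more lower, against 13.7% and 13.8% of those features. The 3 were Cdc25c at 0.46 (0.18 to 0.75), from 266 junction reads with cycloleucine and 164 without, Ccnb2 at 0.36 (0.13 to 0.59) and Mad2l1 at 0.32 (-0.04 to 0.70). Ndc80 was not among them. Its junction reads numbered 669 with cycloleucine and 543 without, and the interval of their fold change, given above, ended below that of its exon reads. An rRNA gene model, Gm23115, lies within Ndc80 on the same strand, and whether its reads had a part was not tested. In Pttg1 the exon and junction values were nearly equal, at 0.31 and 0.30 (0.11 to 0.49), and in Kif20a they were 0.26 and 0.22 (0.11 to 0.34). Espl1 and Cdc20 were below 0 in junction reads too, at -0.24 (-0.42 to -0.06) and -0.21 (-0.34 to -0.08). Exon and junction values had the same sign in 28 members, and the junction interval held the exon value in 32. The members where it did not were Cdc25c, Cenpf, Kif11 and Ndc80. Junction reads are part of the same libraries, so this is a description of 1 pair of libraries.

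Intron reads come largely from RNA not yet spliced. In the members they were scarce, with a median intron share of gene reads of 6.86% in the cycloleucine library and 6.02% in the untreated library, against 10.9% in each library over the well-counted genes. In both libraries 31 of 36 members lay below that background. The shares ran from 1.21% in Cdc20 to 28.9% in Cdc25c with cycloleucine, and from 1.10% in Birc5 to 27.5% in Cdc25c without. Summed over the members, introns held 6947 of 110307 gene reads with cycloleucine (6.30%, exact binomial interval 6.16% to 6.44%) and 5786 of 91230 without (6.34%, 6.18% to 6.50%). Scaled to the libraries, the summed intron reads differed by a ratio of 1.02 (0.984 to 1.06), close to the 1.03 of exon reads.

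Intron values of single genes scattered around 0. Of the 31 members with at least 100 intron reads, Kif20a alone had exon and intron intervals on opposite sides of 0. Birc5, below that minimum, had 31 intron reads with cycloleucine and 12 without. Its intron log2 fold change was 1.10 (0.13 to 2.23), while its exon interval lay below 0 (-0.28 to -0.04). Among the 31 members with at least 100 intron reads over both libraries, the median log2 fold change of intron reads was 0.05, with 16 above and 15 below 0, where 53.4% of 6723 features lay above 0. By the same size rule 4 members were higher and 3 lower, against 14.5% and 10.9% of those features. Exon and intron values had the same sign in 18 of the 31, against 55.7% of those features. The log2 change of the intron to exon ratio was above 0 in 15 of the 31, against 52.6% of 6584 features with as many reads. It had a counting interval wholly above 0 in 1 member and wholly below 0 in 4, against 15.3% and 13.3% of those features. Cenpf was the 1 above, with 178 intron reads with cycloleucine and 99 without and a change of 0.55 (0.19 to 0.92). Kif20a was the lowest, with 159 intron reads with cycloleucine and 186 without and a change of -0.72 (-1.03 to -0.41), where the middle 95% of features ran from -0.65 to 0.71. The other 3 were Nek2 at -0.59 (-1.01 to -0.17), Ttk at -0.49 (-0.85 to -0.13) and Hmmr at -0.34 (-0.59 to -0.09). Kif20a overlaps Cdc23, a subunit gene of the anaphase-promoting complex on the other strand, and strand use in the authors' counting was not stated. Cdc23, named for this overlap, had 6.35 RPKM with cycloleucine and 7.09 without (-0.16, interval -0.25 to -0.06), and its part in the intron reads of Kif20a was not tested. In GENCODE M21, 14 members overlap a gene on the other strand, Ccna2, Cdc20, Cdc25b, Prc1 and Ube2c among them. Cenpf (with Gm37239) and Nek2 (with Gm38037) are also among the 14, and a part of those genes in the intron reads was not tested. On the same strand 5 members overlap another gene model, Ndc80 and Kif11 among them.

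**Figure D4:**
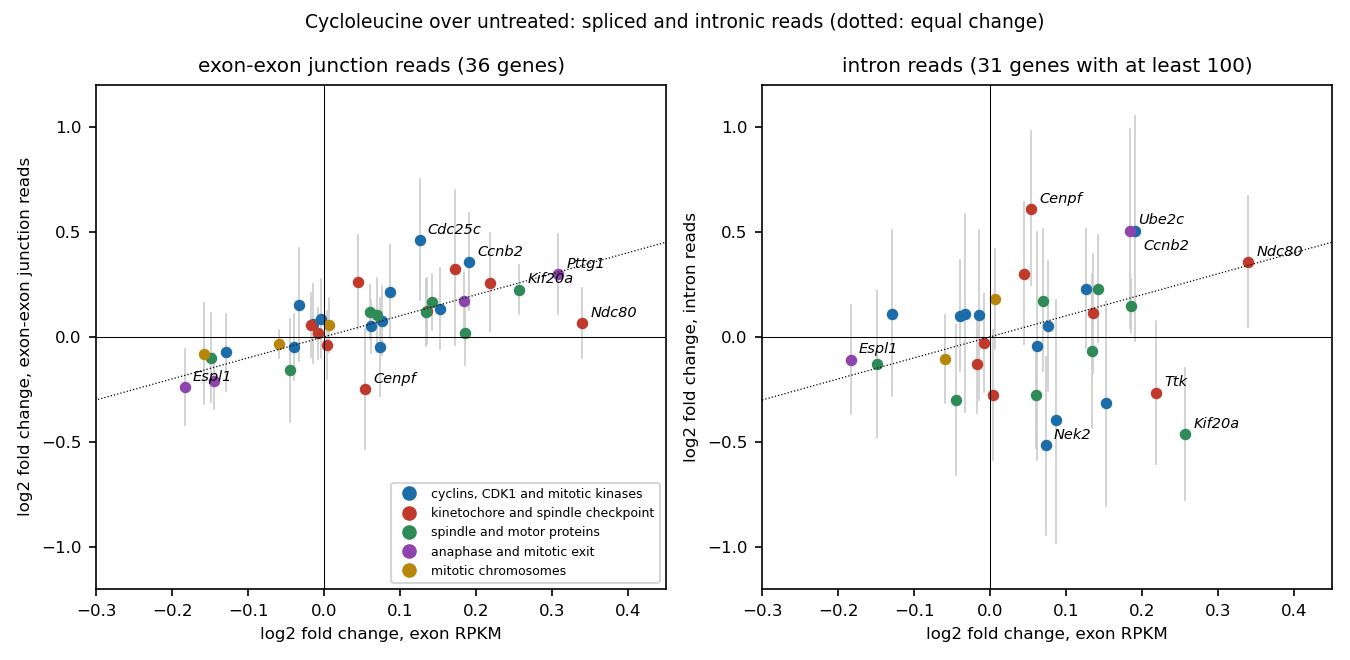
log2 fold change (cycloleucine over untreated) of exon-exon junction reads in 36 members (left) and of intron reads in the 31 with at least 100 (right), each against that of exon RPKM, with 95% counting intervals as grey lines and equal change as the dotted line. Junction values depart from the dotted line most in Cdc25c, and also in genes such as Ndc80, Cenpf, Nuf2 and Kif11, while intron values scatter on both sides of 0.

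Other genes of G2 and mitosis were compared in 9 lists by role, with the G1/S and DNA replication genes beside them. In 7 of these 10 lists the median turned sign under at least 1 other setting, so no direction is read from it; the cohesin and shugoshin, further kinetochore and centromere, and G2 arrest lists kept theirs. Over all 9613 features that passed the filter, 9.7% were 25% or more higher, 7.92% were 20% or more lower and 50.9% were above 0. At 1.5-fold the shares were 3.03% higher and 2.47% lower, and at 2-fold 0.728% and 0.666%, while counting intervals lay above 0 in 22.9% and below it in 21%. Of 12 further entry regulators 1 was higher by the size rule and 1 lower, and these act on the same inhibitory phosphates of CDK1. Wee1, which adds one of them, had 3.13 RPKM in the cycloleucine library and 2.01 in the untreated library, from 194 exon reads with cycloleucine and 106 without, a log2 fold change of 0.61 (0.29 to 0.99). Cdc25a, a phosphatase that removes them, had 8.39 RPKM with cycloleucine and 12.0 without, from 972 reads with cycloleucine and 1184 without, a log2 fold change of -0.52 (-0.64 to -0.40). The list median was 0.05. Regulators of the MuvB, FOXM1 and B-MYB pathway had a median of -0.03 over 14 genes, with Nfyc, an NF-Y subunit, highest at 0.27 and the pocket protein gene Rbl2 lowest at -0.39 (-0.67 to -0.18).

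Cohesin and shugoshin genes had 12 of 13 above 0 and a median of 0.13, and 2 were higher by the size rule. These were the shugoshin genes Sgol2 and Sgol1, protectors of cohesin at centromeres. Sgol2 had 7.68 RPKM with cycloleucine and 5.55 without (0.46, interval 0.33 to 0.60), and Sgol1 had 10.4 with cycloleucine and 7.73 without (0.43, interval 0.30 to 0.56). The lowest was the cohesin ring gene Smc3 at -0.15. In the anaphase-promoting complex list 3 of 17 were higher by the size rule and 0 lower, with a median of -0.05. Fbxo5, which encodes EMI1, an inhibitor of that complex, was the highest with 16.7 RPKM with cycloleucine and 11.9 without (0.48, interval 0.34 to 0.63), and the subunit gene Anapc13 was at 0.39. The lowest were Anapc10 at -0.24 and Cdc16 at -0.19. Further kinetochore and centromere genes had a median of 0.04 over 35, with Mis12 at 0.52 (0.37 to 0.68) the 1 past the size rule, and none lower.

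In the remaining mitotic lists the medians lay near 0. Condensin genes had a median of -0.0081 over 8, further kinesin and spindle genes -0.0049 over 31, and passenger complex and further kinase genes 0.03 over 13. Among spindle genes and among passenger complex and kinase genes 1 each was higher by the size rule, the centriole gene Stil at 0.43 (0.27 to 0.61) and the Hippo pathway kinase gene Lats1 at 0.38 (0.26 to 0.52), and none was lower. G1/S and DNA replication genes had a median of -0.03 over 38, with 14 above and 24 below 0, 1 higher by the size rule and 4 lower. E2f2 was the highest there at 0.55 (0.48 to 0.63), and Tk1, the S phase thymidine kinase, the lowest at -0.56 (-0.76 to -0.40).

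The list of G2 arrest genes, known as brakes on entry into mitosis or responders to damage and growth arrest, had the highest median of the lists. Like the other lists it was chosen with earlier results of these data known, so its values are a description only. Of 12 listed 9 passed the filter, and all 9 lay above 0, with a median of 0.33. By the size rule 5 were higher, 2 of them by 1.5-fold and 1 by 2-fold. Over all features that passed the filter 50.9% were above 0 and 9.7% higher by the size rule, with 3.03% at 1.5-fold and 0.728% at 2-fold. With no filter on low values the median over all 12 was 0.20, and Sfn, named since it was left out, had 17 exon reads with cycloleucine and 28 without, at -0.78 (-1.92 to -0.04). Ccng2, which encodes cyclin G2, had 2.999 RPKM in the cycloleucine library and 1.13 in the untreated library. It had 523 exon reads with cycloleucine and 168 without, giving 1.33 in log2 (1.15 to 1.66), or 0.91 with a pseudocount of 1 RPKM. That interval is for reads with nothing added, where the ratio of Ccng2 was 2.64. Wee1, on this list too, was next. The lowest were Ccng1 at 0.02 (-0.06 to 0.10) and the checkpoint kinase gene Chek2 at 0.12 (-0.03 to 0.27). Chosen after their values were seen, Btg2 had 286 RPKM with cycloleucine and 207 without (0.47, interval 0.44 to 0.50), Gadd45a 6.69 with cycloleucine and 4.62 without (0.52, interval 0.29 to 0.78) and Cdkn1a, the p21 gene, 3.93 with cycloleucine and 3.53 without (0.15, interval -0.11 to 0.42). Gadd45b, chosen likewise, had 22.3 RPKM with cycloleucine and 17.7 without (0.33, interval 0.18 to 0.48). The 5 past the size rule were therefore Ccng2, Wee1, Gadd45a, Btg2 and Gadd45b.

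**Figure D5:**
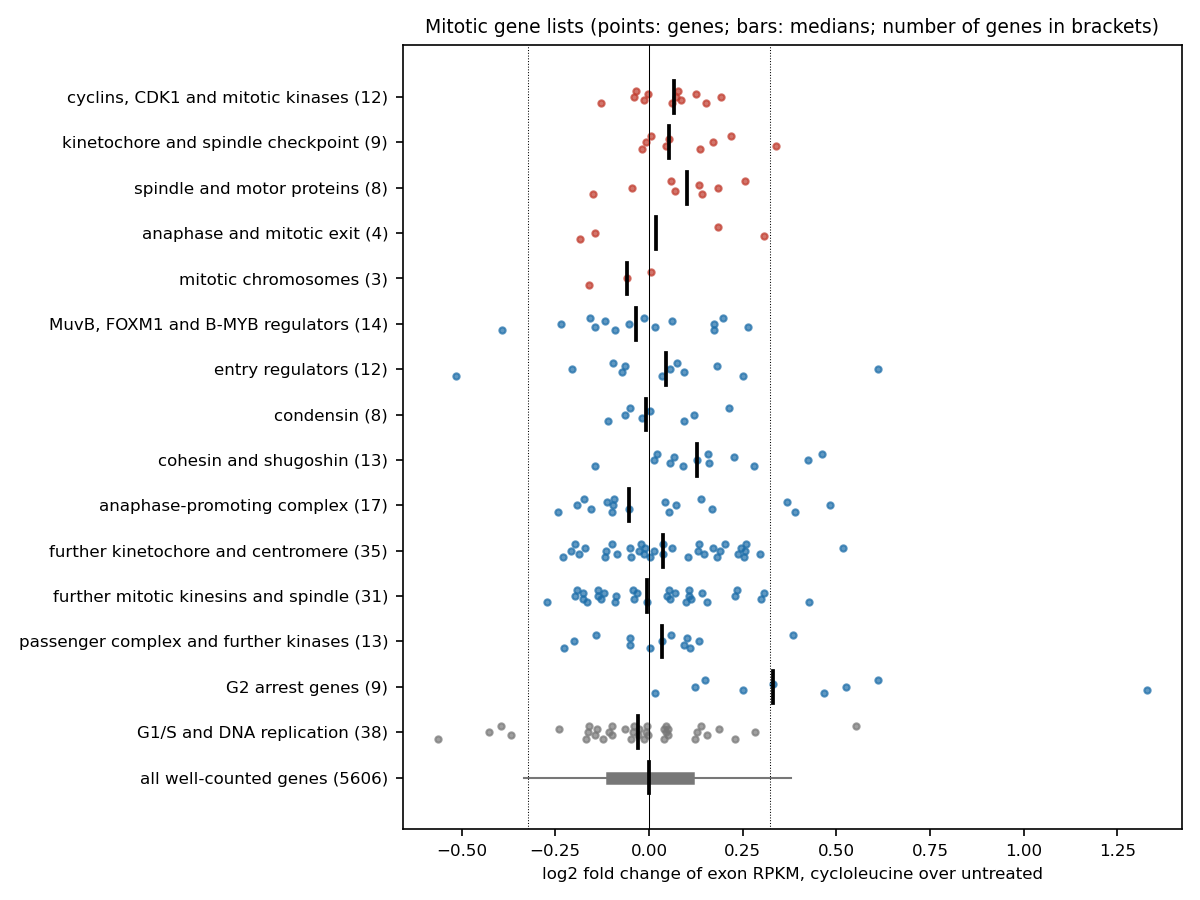
log2 fold change of exon RPKM, cycloleucine over untreated, for genes that passed the filter in the role groups of the 36 members (red), the other mitotic lists (blue) and the G1/S and DNA replication genes (grey), with medians as black bars and dotted lines at 25% higher and 20% lower. The bottom row gives the median, the middle 50% (thick) and the middle 95% (thin) of 5606 well-counted genes, and the G2 arrest list has the highest median, 0.33. The lists were chosen with earlier results of these data known.

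Base composition moved slightly with the fold change. The 18 members with the lowest GC content of their longest transcript (40.1% to 46.3%) had a median log2 fold change of 0.06 with 13 above 0, and the 18 with the highest (46.6% to 56.1%) had 0.04 with 10 above 0. Well-counted genes in the same lower range had a median of 0.02 and those in the same upper range one of -0.01. With the trend of fold change on GC removed the median of the members was 0.03, with 21 above 0.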

How the data were processed

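The members and gene lists were chosen with earlier results of these data known. Per the labels' protocols, rRNA-depleted total RNA was fragmented by heat and sequenced on an Ion Proton. The deposited table holds read counts per gene, exon, intron and exon-exon junction, total or uniquely placed, per the file headers. The authors also gave RPKM per the file headers. Multiplying a deposited RPKM by exon length and by all gene reads of its library returned the exon reads (gene reads for 13700 features without an annotated transcript) in 43346 of 43346 features per library, within 0.02 reads plus a share of 0.0001. Per the submitters' processing notes, mm10 was used. For aligner, counting tool, annotation release and strand use: not given in the sources used here. No replicate library was analysed here, although the series' design text speaks of 3 repeats. The table had 0 columns of other libraries.

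Since each group had 1 library, the conditions were compared without a test. Fold changes used RPKM plus 0.1, after the filter given above, and size rules of 25% higher or 20% lower, 1.5-fold and 2-fold. For folds, 95% exact (Clopper-Pearson) bounds were taken on the cycloleucine share of a gene's reads, scaled by library totals. Nothing was added to the counts for these bounds. At low levels, as in Ccng2 and Sfn, the printed fold change therefore lies nearer 0 than the ratio the interval belongs to. Intervals of intron to exon ratio changes are normal approximations from 4 counts. Intron and junction changes had 0.5 added to each count. The ratio set asked for at least 100 intron and 200 exon reads. The limit at a count of 0, 3 counts, is for 1 kb of exon 0.0939 RPKM with cycloleucine and 0.111 RPKM without. Named genes were all members and, of each other list, up to 2 highest and 2 lowest. Promoter windows came from RefSeq and gene overlaps and GC content from GENCODE M21, and 95.5% of kept features had a GC value. The last 30 bases of 26 of 32 member windows were found in a GENCODE transcript of the gene. The fold and interval code was tested on simulated data. Python 3.11.15, pandas 2.3.3, numpy 2.4.6, scipy 1.17.1 and matplotlib 3.10.9 were used.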

Additional observations from a re-analysis of the deposited data

How the results depend on the processing

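No paired analysis was possible because there was 1 library in each group. The removal of the GC trend was chosen after seeing the data. The median of the 36 members lay between 0.03 and 0.09 under all settings tried, and Ndc80 stayed above 0. The number of members 25% or more higher, 1 by the reported setting, was 2 with uniquely placed reads, 2 with scaling by a trimmed mean and 0 with the GC trend removed. The second gene was Pttg1, at 0.35 with uniquely placed reads and 0.33 with the trimmed mean. The number 20% or more lower, and both numbers at 1.5-fold, were 0 in all settings tried. Medians of the 5 role groups kept their sign, but that of the anaphase group, 0.02, reached 0.07 with uniquely placed reads, and that of the kinetochore group, 0.05, ran from 0.03 to 0.09. Medians of 7 of the 10 other lists turned sign: with uniquely placed reads MuvB regulators went to 0.0098, G1/S genes to 0.01, condensin to 0.01, the anaphase-promoting complex to 0.0024 and kinesin and spindle genes to 0.03; with an RPKM of at least 5 the anaphase-promoting complex went to 0.06 and entry regulators to -0.02; with the GC trend removed passenger complex and kinase genes went to -0.0043. With uniquely placed reads the median of all features that passed the filter was 0.04, against 0.0035 by the reported setting. The sign turns under uniquely placed reads, the members' 0.09 and the 0.35 of Pttg1 thus come with a shift of all features. The G2 arrest median, 0.33, was 0.20 with no filter on low values. Of 358 single member values 1 left its counting interval, Mki67 at 0.04 with uniquely placed reads, a setting that puts the median of all features that passed the filter at 0.04. Among other named genes Ccng2 was at 0.91 with a pseudocount of 1. On the sense strand only, CCAAT was in 48.4% of member promoters, against 25.2% of well-counted genes and 23.7% of all genes, and CHR in 58.1%, against 10.3% and 13.2%. Ncapd2, a condensin gene, was at 0.21, and at -0.0035 with uniquely placed reads. Junction and intron reads were few in single genes, which limits what their folds show.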
